A study of Mus musculus with 167 samples.

Results

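The miR-199 and miR-214 microRNAs (miRNAs) were followed through 5 tissues of mice that had received whole thorax lung irradiation (WTLI) or a sham exposure. The members were chosen by name: mmu-miR-199a-3p, mmu-miR-199b-3p, mmu-miR-199a-5p, mmu-miR-199b-5p, mmu-miR-214-3p and mmu-miR-214-5p, which are 6 of the 1915 mature miRNAs counted in every library. MiR-199a-3p and miR-199b-3p have the same mature sequence, and their counts were summed and are written miR-199a/b-3p, which left 5 members. No library was made from sorted fibroblasts, so the cells that gave these reads in whole tissue were not measured.

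Libraries came from lung, heart and brain homogenates and from the white (WBC) and red blood cell (RBC) fractions of 35 mice. C3Hf/Sed/Kam mice (C3H, all female) were sampled in month 4 after exposure, and C57Bl/6 mice (C57) in month 6. Irradiated mice had received a single dose of X-rays to the chest under anaesthesia with the rest of the body shielded, were young adults at that time, and had lived to the endpoint after a dose chosen to be lethal for most mice. Lung, heart, brain and RBC each had 7 irradiated and 8 sham C3H libraries and 5 irradiated and 15 sham C57 libraries, and WBC had 6 and 5 of C3H and 5 and 11 of C57. Of the C57 mice, 4 irradiated mice were male and 1 (replicate 5) was female, and the sham mice were 8 males and 7 females. Strain and month therefore cannot be told apart, and in C57 mice irradiation and sex were unbalanced. The titles also hold an A or a B, called the letter here, and nothing says what it stands for.

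A miRNA hairpin is cut into a short duplex with a 5p and a 3p arm, and the arm that is loaded into an Argonaute protein guides it to messenger RNAs that pair with the seed near its start. The miR-199a-2 and miR-214 hairpins lie in one long non-coding transcript, Dnm3os, which is known from mesenchymal cells, and both miRNAs are widely used as miRNAs of fibroblasts and related stromal cells. MiR-199a-5p has been studied as a regulator of caveolin in lung fibroblasts, miR-199a-3p for its effect on the division of heart muscle cells, and miR-214 for its role in calcium handling of the injured heart.

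The mature sequences are shown because they decide which reads can be told apart and which members share a seed. RefSeq (build GRCm38.p6, the mm10 genome) gave a mature sequence for 5 of the 6 members, and mmu-miR-199b-5p is named only. Seeds (bases 2 to 8) are in capitals, and the arms of one hairpin carry different seeds.
mmu-miR-199a-3p: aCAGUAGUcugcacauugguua
mmu-miR-199b-3p: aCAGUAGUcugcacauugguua
mmu-miR-199a-5p: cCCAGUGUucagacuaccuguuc
mmu-miR-214-3p: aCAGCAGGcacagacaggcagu
mmu-miR-214-5p: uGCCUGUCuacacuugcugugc
The first pair of sequences is identical over all 22 bases, so a read of this arm cannot be given to one paralogue. The seed of miR-214-3p was shared with 1 other mouse miRNA of the table, mmu-miR-761, and the seeds of miR-199a/b-3p, miR-199a-5p and miR-214-5p with 0 others of the table. The seed of miR-199b-5p was not compared, so the count for miR-199a-5p does not cover it.

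The members come from 4 hairpin genes at 3 places in the genome. Mir199a-2 (chr1:162217814-162217923, plus strand) and Mir214 (chr1:162223368-162223477, plus strand) lie in exons of Dnm3os, 5444 bases apart, and both are inside an intron of Dnm3, which is read from the opposite strand. Mir199b (chr2:32318460-32318569, plus strand) lies in an intron of Dnm1 and Mir199a-1 (chr9:21496495-21496564, minus strand) in an intron of Dnm2, again on the strand opposite to the host gene. MiR-199a-3p is encoded at chr1:162217883-162217904 and at chr9:21496498-21496519, miR-199b-3p at chr2:32318524-32318545, and miR-199a-5p at chr1:162217844-162217866 and at chr9:21496537-21496559. MiR-214-3p is encoded at chr1:162223438-162223459 and miR-214-5p at chr1:162223397-162223418.

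The deposited counts divided the shared 3p reads almost evenly between the paralogue rows. Over all 167 libraries the row of miR-199a-3p held 1004137 counts and that of miR-199b-3p 1002171, so that 50.05% were on miR-199a-3p. In single lung libraries that share lay between 49.4% and 50.6%, and in single heart libraries between 49.1% and 51.0%. The difference of the rows, divided by the square root of their sum, had a standard deviation (SD) of 0.822 over lung, 1.23 over heart and 1.02 over all libraries, where 1 is the value for reads assigned by coin toss. In heart the difference averaged 0.417 of that unit, reached 3.201 and lay beyond 2 in 4 of 35 libraries, with 373745 counts on miR-199a-3p and 371406 on miR-199b-3p, so the division there departed somewhat from a coin toss. As the sequences are identical, the rows were not read as separate measures of miR-199a-3p and miR-199b-3p, whereas the 5p arms of the paralogues were counted apart.

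Library totals ran from 1794995 to 7865102 counts, with medians from 2966605 in brain to 4172573 in WBC. A count of 0 allows a level of up to 3 counts, which was 0.655 to 1.48 reads per 1000000 counts of the library (RPM) in lung, 0.627 to 1.54 in heart and 0.381 to 1.67 in the other tissues. These limits cover counting error only. Summed levels of 4 cardiac muscle miRNAs were 50690 to 298863 RPM in heart and 2569 to 8560.4 in lung, and 2 neuronal miRNAs stood at 44375 to 107688 RPM in brain and at most 485 elsewhere. The 5 epithelial miRNAs reached 8381 to 37452 RPM in lung, but also up to 41037 in brain. Lists of erythrocyte and leukocyte miRNAs did not separate the blood fractions, since the erythrocyte list stood at 17913 to 106907 RPM in WBC and at 28566 to 106323 in RBC.

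MiR-199a/b-3p was among the most abundant miRNAs of lung and heart, and was far lower in brain and blood. In sham lungs it averaged 7970.5 ± 678 RPM in C3H (SD, n = 8) and 9109 ± 1535 in C57 mice (SD, n = 15), rank 19 of 788 and rank 18 of 881 miRNAs with a count. In sham hearts it averaged 7818 ± 1589 RPM in C3H and 6101 ± 1460.05 in C57 mice (SD, same n), ranks 20 of 759 and 23 of 845. Sham brains had 273 ± 81.6 RPM in C3H and 229 ± 75.5 in C57 mice. Sham WBC had 12.7 ± 8.63 RPM (C3H, n = 5) and 11.7 ± 3.68 (C57, n = 11), and sham RBC 7.33 ± 4.38 (n = 8) and 4.24 ± 6.86 (n = 15).

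The other 4 members were far less abundant and, like miR-199a/b-3p, stood higher in lung and heart than in brain and blood. In sham lungs miR-199b-5p averaged 105 RPM in C3H and 132 in C57 mice, miR-199a-5p 56.8 and 68.4, miR-214-3p 45.0 and 40.6, and miR-214-5p 7.43 and 10.04. In sham hearts miR-199a-5p averaged 127 RPM in C3H and 74.7 in C57 mice, miR-199b-5p 135 and 80.0, miR-214-3p 29.7 and 31.8, and miR-214-5p 7.78 and 4.81. In sham brains all 4 averaged at most 3.35 RPM, and miR-214-3p and miR-214-5p were under 10 counts in all 35 brain libraries. In WBC these 4 members were at 0 counts in 25 (miR-199a-5p), 20 (miR-199b-5p), 26 (miR-214-3p) and 26 (miR-214-5p) of 27 libraries, and in RBC in 32, 31, 30 and 34 of 35, so differences in blood were not detectable at this depth.

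**Figure D1:**
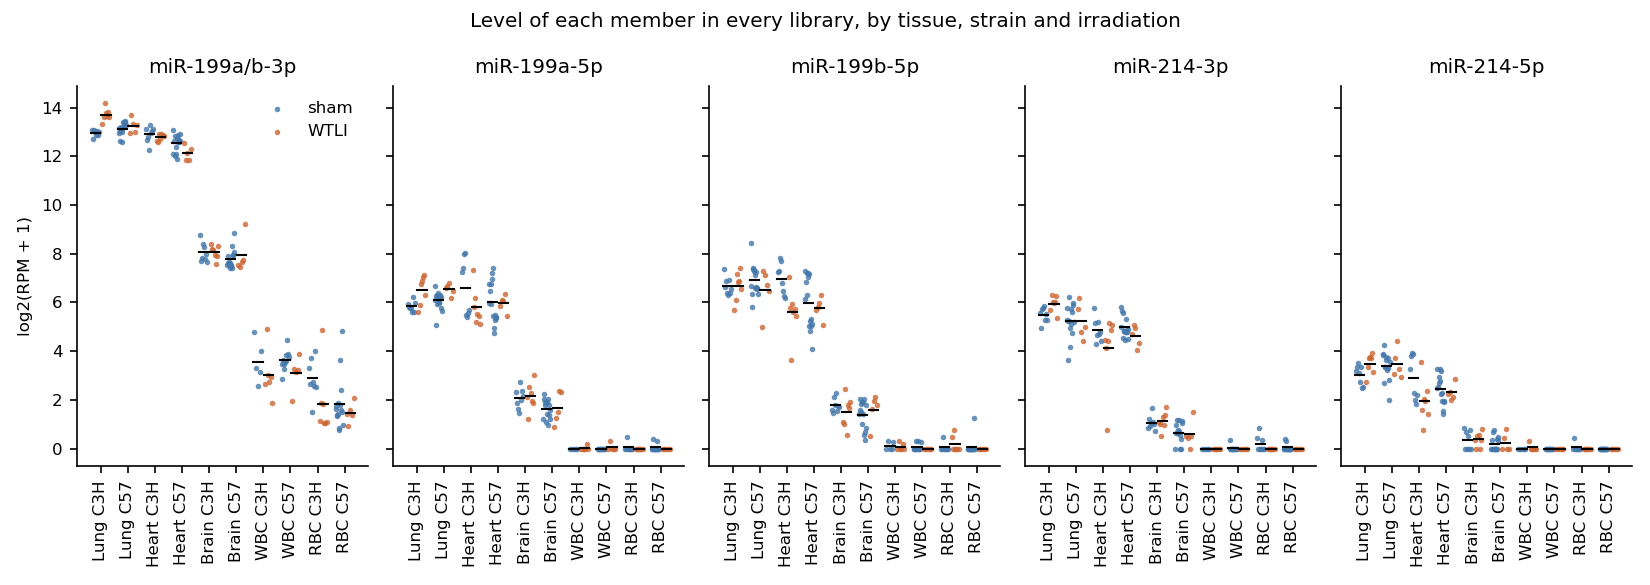
RPM of each member (log axis) in every library of the 5 tissues, by strain and irradiation. All 5 members stood higher in lung and heart than in brain and blood, and miR-199a/b-3p was the highest member in every tissue.

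Paired over sham mice that gave both tissues, lung and heart exceeded brain for every member. The exact paired permutation test (two-sided, log2(RPM + 1), Benjamini-Hochberg adjustment over 100 tests, 68 of which passed at 0.05) gave an adjusted p of 0.000265 for each member in C57 mice, higher in 15 of 15 animals. In C3H mice it gave an exact adjusted p of 0.0118, higher in 8 of 8 animals, with a p of 0.00781 as the smallest that 8 pairs allow. On the log2(RPM + 1) scale, which understates the folds of the rare members, lung exceeded brain 40.5-fold for miR-199a/b-3p, 46.1-fold for miR-199b-5p and 9.04-fold for miR-214-5p in C57 mice. Heart exceeded brain 26.8-fold for miR-199a/b-3p in C57 and 28.9-fold in C3H mice. Tissues were counted in separate tables, so tissue and table cannot be told apart, and in homogenates more cells of a type and more RNA per cell cannot be told apart.

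Lung and heart were close neighbours in this order. In C57 mice miR-199a/b-3p was higher in lung than in heart by 0.60 on the log2 scale (13 of 15 animals, exact permutation adjusted p = 0.00102), miR-199b-5p by 0.92 (13 of 15, exact adjusted p = 0.00727) and miR-214-5p by 0.95 (15 of 15, exact adjusted p = 0.000265). The difference was 0.07 for miR-199a-5p (exact adjusted p = 0.781) and 0.27 for miR-214-3p (exact adjusted p = 0.265). In C3H mice only miR-214-3p passed, 0.63 higher in lung (6 of 8 animals, exact adjusted p = 0.0460), while miR-199a/b-3p differed by 0.05 (4 of 8, exact adjusted p = 0.756). With TMM-scaled RPM the C57 differences of miR-199a/b-3p (0.18) and miR-199b-5p (0.51) and the C3H difference of miR-214-3p (0.42) no longer passed, and miR-199b-5p passed in C3H mice with -0.50, lower in lung. WBC exceeded RBC for miR-199a/b-3p in C57 mice (11 of 11 animals, 4.74-fold, exact adjusted p = 0.00244), while the 5 C3H pairs cannot reach an exact p below 0.0625.

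WTLI was followed by higher miR-199a/b-3p in C3H lung. Sham C3H lungs ranged from 6711 RPM over a median of 8258 to 8643, and irradiated lungs from 10350.9 over 12745 to 18484. All 7 irradiated libraries lay above all 8 sham libraries, and the ratio of the means was 1.70. This 3p arm was the abundant product of the miR-199 hairpins in both tissues of the chest.

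In the limma fit of quantile-normalised log2 RPM the change in C3H lung was 0.95 (SE 0.12), a 1.93-fold increase with an adjusted p of 1.9e-07. It was 1 of 5 members that passed at an adjusted p under 0.05, beside 31.8% of the 349 miRNAs tested there. Groups that did not overlap in RPM were found for 13.5% of these 349 miRNAs. With the study's fold minimum of 2.25 added, 9.74% of the miRNAs and 0 members passed. The change of miR-199a/b-3p was 0.48 with TMM factors (limma adjusted p = 0.00112), 0.75 with library size alone (limma adjusted p = 1.71e-05), 0.49 in edgeR (adjusted p = 0.000825) and 0.48 in DESeq2 (adjusted p = 0.000173). Library size alone moved the median change of all miRNAs in C3H lung from -0.09 to 0.27, and the miRNAs that passed from 55 higher and 56 lower to 94 higher and 21 lower. The change was 0.93 in letter A alone (limma adjusted p = 0.00435) and 0.95 in letter B alone (limma adjusted p = 0.000156), and it passed with each of the 15 C3H lungs left out.

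The other 4 members did not pass in C3H lung. MiR-199a-5p ranged from 47.2 RPM over a median of 54.9 to 74.5 in sham lungs and from 47.1 over 107 to 138 in irradiated lungs, and 5 of 7 irradiated libraries lay above all sham libraries while 1 lay below them. Its fitted change was 0.24 (SE 0.20, limma adjusted p = 0.373), but 0.68 with library size alone (limma adjusted p = 0.00844) and 0.44 in DESeq2 (adjusted p = 0.0311). MiR-214-3p ranged from 30.0 over 46.0 to 57.1 RPM in sham and from 40.4 over 63.6 to 79.0 in irradiated lungs, with 5 of 7 irradiated libraries on top. For this arm, which shares the Dnm3os transcript with miR-199a-2, the fitted change was 0.09 (SE 0.27, limma adjusted p = 0.840).

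MiR-214-5p, the rarer arm of miR-214, averaged 7.43 ± 2.19 RPM in sham (SD, n = 8) and 10.5 ± 3.01 in irradiated C3H lungs (SD, n = 7), with a fitted change of 0.04 (SE 0.28, limma adjusted p = 0.936). MiR-199b-5p averaged 105 ± 29.5 and 108 ± 41.5 RPM, with a fitted change of -0.38 (SE 0.30, limma adjusted p = 0.350). The irradiated and sham libraries of both members overlapped. In the same fit 3 of 4 cardiac muscle markers fell in C3H lung, their summed level lying between 4759 and 7515 RPM in sham and between 2569 and 5226 in irradiated libraries. Of the endothelial markers 1 of 2 fell, with sums of 380361 to 444378 RPM in sham and 297017 to 390147 in irradiated lungs. Of the 5 epithelial markers 1 fell, of the 5 ciliated markers 1 rose, and of the smooth muscle markers 0 of 2 passed. The part of these shifts in the result was not tested.

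**Figure D2:**
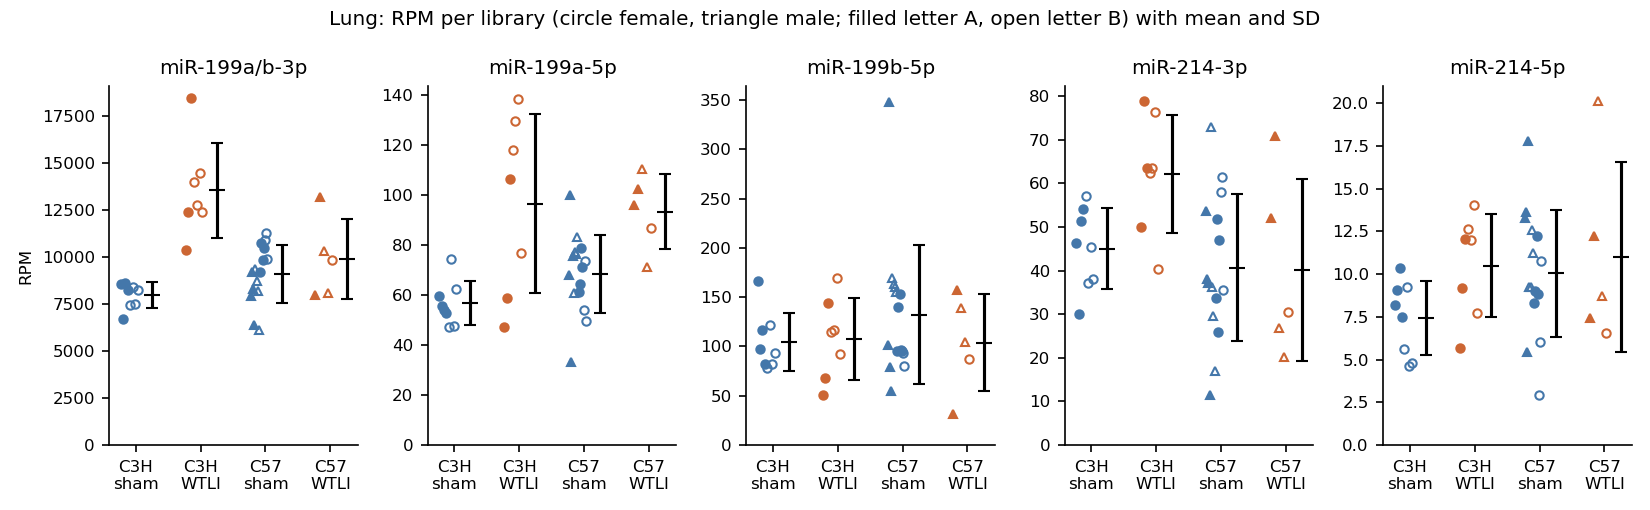
RPM of each member in every lung library, with circles for females, triangles for males, filled symbols for letter A and open symbols for letter B, and the mean and SD of each group beside them. For miR-199a/b-3p all 7 irradiated C3H lungs (10350.9 RPM and above) stood over the highest sham C3H lung (8643 RPM), and the other panels overlapped.

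No member passed in C57 lung 6 months after WTLI. MiR-199a/b-3p was 8007, 13220.4, 10328, 8079.7 and 9869 RPM in irradiated replicates 1 to 5, against 6141 over a median of 9211 to 11290.0 in sham lungs. Only replicate 2 lay above all sham libraries. MiR-199a-5p was 96.0, 102, 110, 71.4 and 86.9 RPM in the same replicates, against 33.1 over 71.2 to 99.996 in sham lungs, and 2 of 5 lay above all sham libraries.

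The fitted C57 lung changes were 0.28 for miR-199a/b-3p (SE 0.12, limma adjusted p = 0.0990), 0.46 for miR-199a-5p (SE 0.20, limma adjusted p = 0.0977) and -0.51 for miR-199b-5p (SE 0.29, limma adjusted p = 0.205). Those of miR-214-3p (-0.18) and miR-214-5p (-0.12) were smaller than their standard errors (0.27 and 0.26). The count was 0 of 5 members in limma, beside 16.9% of the 349 miRNAs tested, with 2 members at an unadjusted p under 0.05. In edgeR and in DESeq2 it was also 0 of 5, beside 74 of 349 and 84 of 348 miRNAs. MiR-199a/b-3p passed with sex as a covariate (0.34, limma adjusted p = 0.0494) and without irradiated replicate 4 (0.39, limma adjusted p = 0.0360), and its change was -0.05 with TMM factors. In males alone its change was 0.40 (limma adjusted p = 0.414, beside 1.22% of all miRNAs that passed), with 2 of 4 irradiated males above all sham males (6141 to 9364 RPM). With library size alone the median change of all miRNAs moved from -0.05 to 0.12, and the miRNAs that passed from 34 higher and 25 lower to 60 higher and 12 lower.

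The difference between the strains was tested by itself. All C3H mice were female and most irradiated C57 mice were male, so sex was mixed with strain and month in this difference. The change of miR-199a/b-3p was 0.67 larger in C3H than in C57 lung (SE 0.17, p = 0.00047, limma adjusted p = 0.0817). It did not pass, beside 0.287% of all miRNAs that did. Of the members, 1 had an unadjusted p under 0.05 in limma, and 0 of 5 passed in limma, edgeR and DESeq2. In edgeR 1 of 349 miRNAs passed, and in DESeq2 1 of 348. Without irradiated C57 replicate 2, the highest of its group, the difference was 0.86 and passed (limma adjusted p = 0.000521).

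In C3H heart miR-199b-5p and miR-214-5p, the 5p arms of different hairpins, were lower after WTLI, while the other 3 members did not pass. MiR-199b-5p ranged from 71.7 over a median of 131 to 225 RPM in sham hearts and from 11.4 over 52.3 to 131 in irradiated hearts, and 6 of 7 irradiated libraries lay below all sham libraries. MiR-214-5p ranged from 2.60 over 6.23 to 14.1 RPM in sham and from 0.697 over 2.85 to 10.7 in irradiated hearts, and 3 of 7 lay below all sham libraries. Irradiated replicate 1 was the highest irradiated library for both members, and replicate 3 the lowest.

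MiR-199b-5p fell in C3H heart by 1.26 on the log2 scale (SE 0.41, limma adjusted p = 0.0275) and miR-214-5p fell by 1.08 (SE 0.33, limma adjusted p = 0.0238). These were 2 of 5 members, beside 17.7% of the 311 miRNAs tested. With the fold minimum, 1 member (miR-199b-5p) and 6.75% of all miRNAs passed. In edgeR and in DESeq2 0 members passed with it, beside 26 of 311 miRNAs in either. With library size alone 2 members passed with it, beside 16 of 311. The fitted changes were -0.70 for miR-199a-5p (SE 0.39, limma adjusted p = 0.199), -0.67 for miR-214-3p (SE 0.38, limma adjusted p = 0.207) and 0.18 for miR-199a/b-3p (SE 0.24, limma adjusted p = 0.601). In edgeR the change of miR-199b-5p was -1.14 (adjusted p = 0.0289) and that of miR-214-5p -0.99 (adjusted p = 0.0520).

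The calls in C3H heart depended on single libraries and on the letter. Without sham replicate 2, sham replicate 4 or irradiated replicate 3, 0 members passed in limma. The change of miR-199b-5p was then -1.22, -1.21 and -0.96 and that of miR-214-5p -0.96, -0.97 and -0.97. MiR-199b-5p also missed the threshold without sham replicate 1 (-1.24) or 3 (-1.20), and miR-214-5p without irradiated replicate 2 (-0.97) or 7 (-0.95). In letter A alone the changes were -1.78 (limma adjusted p = 0.0398) and -1.68 (limma adjusted p = 0.0212), and in letter B alone -0.78 (limma adjusted p = 0.596) and -0.49 (limma adjusted p = 0.673), while 18.3% of all miRNAs passed in letter A and 6.27% in letter B. The difference between the letters was not tested.

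The letters differed among the sham C3H hearts themselves. MiR-199a-5p was 152.2 to 256 RPM in the 4 sham hearts of letter A and 41.6 to 50.1 in the 4 of letter B. MiR-199b-5p was 151.9 to 225 and 71.7 to 110 RPM, and miR-214-5p 8.63 to 14.1 and 2.60 to 3.82. The letters did not overlap for any of these 3 arms, nor for 43.7% of the 311 miRNAs tested in heart. MiR-199a/b-3p showed the opposite order with overlap, 4898 to 8906.5 RPM in letter A and 8039 to 9824 in letter B.

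Other lists of miRNAs moved with these groups. In the sham C3H hearts the smooth muscle pair was at 54266 to 77645 RPM in letter A and 37073 to 48548 in letter B, and the leukocyte list at 1655 to 10253 and 1065 to 1582. Irradiated replicate 3 had the lowest cardiac sum, 50690 RPM against 152407 to 246805 in the others, and only 3 counts of miR-214-3p (0.697 RPM). All 4 ciliated markers tested rose in irradiated C3H hearts, their list summing to 61.9 to 200.2 RPM in sham and 184 to 724 in irradiated libraries. Of the erythrocyte markers 2 of 4 fell, of the leukocyte markers 1 of 5, of the cardiac markers 1 of 4, of the endothelial markers 1 of 2 and of the smooth muscle markers 1 of 2. The part of these shifts in the result was not tested.

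**Figure D3:**
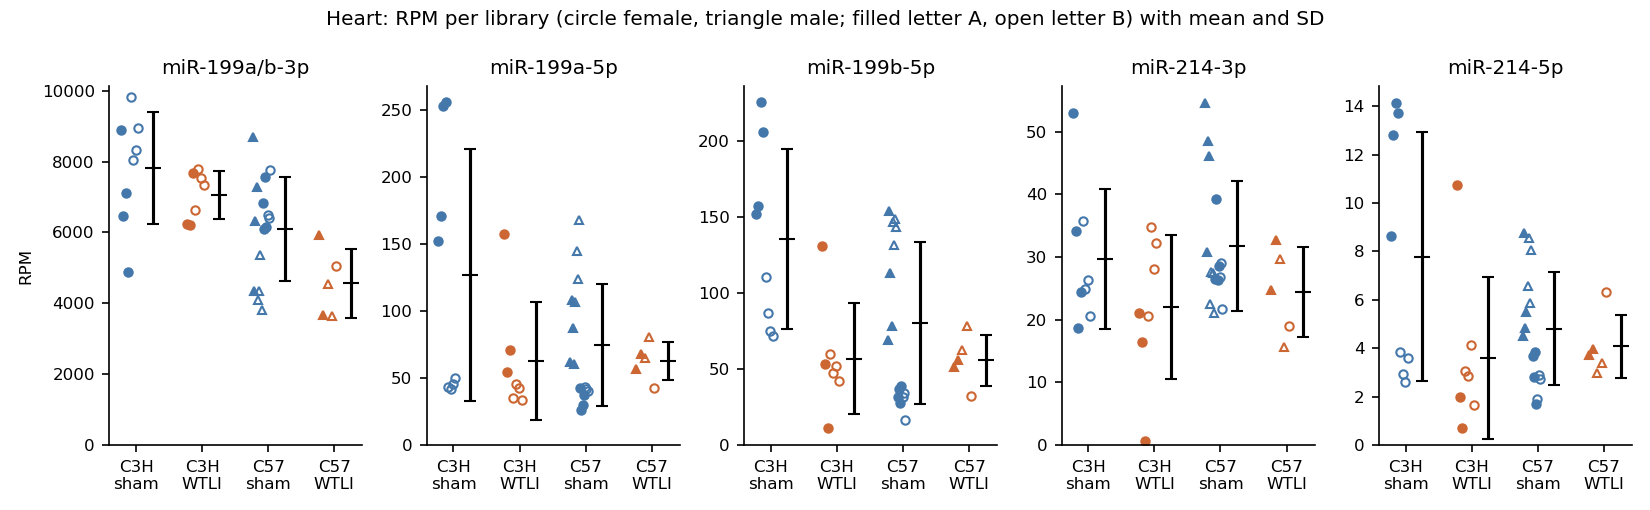
RPM of each member in every heart library, with circles for females, triangles for males, filled symbols for letter A and open symbols for letter B, and the mean and SD of each group beside them. In the 5p panels the sham C3H hearts of letter A stand above those of letter B, and the sham C57 males above the females.

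No member passed in C57 heart. MiR-199a/b-3p was 5928, 3666, 4547, 3642 and 5047 RPM in irradiated replicates 1 to 5, against 3803 over a median of 6329.9 to 8683 in sham hearts, and 2 of 5 lay below all sham libraries. Its fitted change was -0.33 (SE 0.24, limma adjusted p = 0.581). Replicates 1 to 4 were males and replicate 5 a female, and sham males and females differed in this tissue, so the values were also set against sham mice of the same sex. For miR-199a/b-3p, 2 of 4 irradiated males lay below all sham males (3803 to 8683 RPM), and the female lay below all sham females (6093 to 7756). MiR-199b-5p was 51.1, 55.7, 62.4 and 78.1 RPM in irradiated males, 3 of 4 below all sham males (68.8 to 154), and 32.1 in the female, within the sham females (16.2 to 39.0). MiR-214-5p was 2.97 to 3.98 RPM in irradiated males, all 4 below the sham males (4.52 to 8.74), a separation that 5.47% of the miRNAs tested in heart showed between these males, and 6.33 in the female, above all sham females (1.70 to 3.84). In males alone 0 of 5 members passed, beside 9.86% of all miRNAs, with changes of -0.77 for miR-199b-5p (limma adjusted p = 0.111), -0.83 for miR-214-5p (limma adjusted p = 0.0928) and 0.07 for miR-199a/b-3p (limma adjusted p = 0.932), and with sex as a covariate 0 of 5 passed. Over both sexes the fitted change of miR-199b-5p was -0.27. The changes of miR-199a-5p (-0.07), miR-214-3p (-0.40) and miR-214-5p (-0.32) did not pass either. The count was 0 of 5 in limma, beside 3.54% of the 311 miRNAs tested, with 0 members at an unadjusted p under 0.05. In edgeR and in DESeq2 it was also 0 of 5, each with 1 member at an unadjusted p under 0.05. All miRNAs that passed there were 14 and 18 of 311. The strain difference in heart passed for 0 of 5 members in limma, with 0 at an unadjusted p under 0.05 and beside 0.0% of all miRNAs in limma. It passed for 0 members in edgeR and in DESeq2, beside 0 and 4 of 311 miRNAs. Sex was again mixed with strain and month in this difference.

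**Figure D4:**
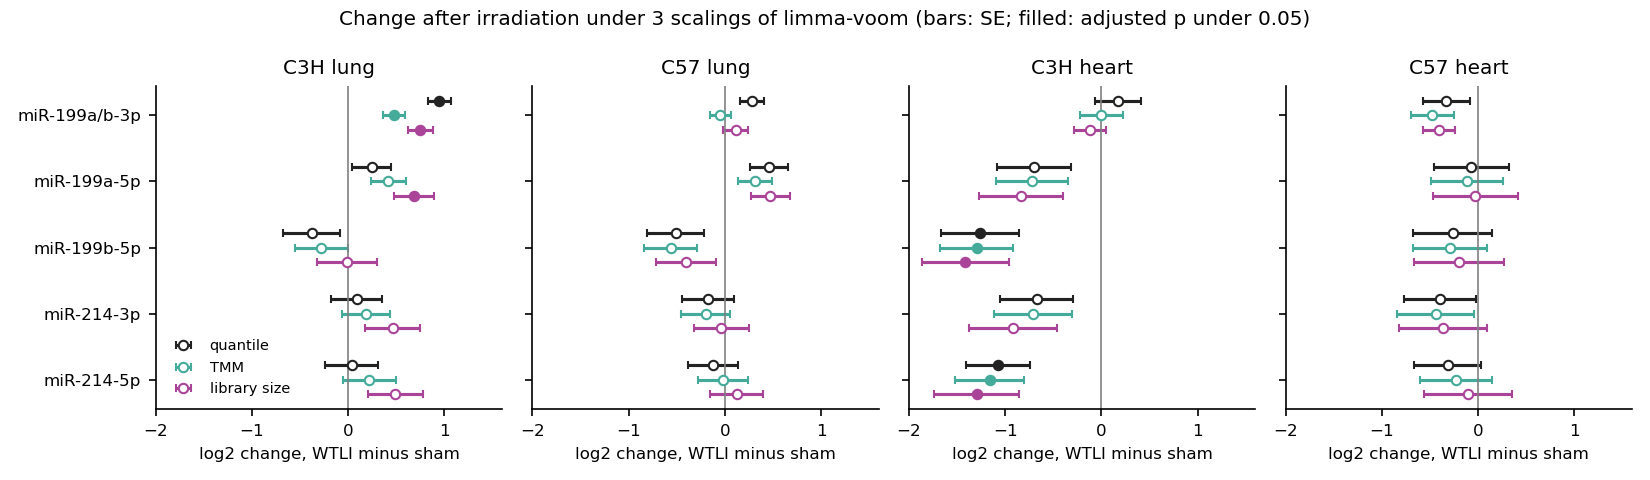
Log2 change after irradiation of each member in lung and heart of both strains under 3 scalings of the limma-voom fit (quantile, TMM, library size alone), with SE bars and filled symbols for an adjusted p under 0.05. MiR-199a/b-3p in C3H lung and miR-199b-5p and miR-214-5p in C3H heart were filled under all 3, and the size of the first ran from 0.48 to 0.95.

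Lung and heart of the same C3H mice were set against each other to test whether WTLI moved the members differently in these tissues. The change in lung exceeded that in heart by 0.78 for miR-199a/b-3p (SE 0.26, limma adjusted p = 0.0524), 0.99 for miR-199a-5p (limma adjusted p = 0.226), 1.00 for miR-199b-5p (limma adjusted p = 0.275), 0.81 for miR-214-3p (limma adjusted p = 0.370) and 1.13 for miR-214-5p (limma adjusted p = 0.0828). None of the 5 passed in limma, beside 6.7% of the miRNAs tested, and 3 had an unadjusted p under 0.05. With the animal as a replicate block, since both tissues came from the same mice, miR-199a/b-3p passed with the same 0.78 (limma adjusted p = 0.0394). With library size alone 3 members passed, with differences of 0.87 for miR-199a/b-3p, 1.52 for miR-199a-5p and 1.76 for miR-214-5p, beside 13.7% of all miRNAs. With that scaling the median difference of all miRNAs moved up too, from -0.03 to 0.44, and those that passed went from 12 higher and 13 lower to 45 higher and 6 lower. With TMM factors the difference of miR-199a/b-3p was 0.24, the median of all miRNAs was -0.18, and 9 miRNAs were higher and 43 lower. MiR-199a/b-3p also passed without the lung of irradiated replicate 1 (0.79) or 2 (0.81) or the heart of irradiated replicate 3 (0.84), and miR-214-5p without the heart of irradiated replicate 1 (1.35). In C57 mice 0 of 5 members passed in limma, beside 5.63% of the miRNAs tested, and 1 had an unadjusted p under 0.05 (miR-199a/b-3p, 0.62, limma adjusted p = 0.254).

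Outside the chest no member passed after WTLI. In brain, which was shielded, miR-199a/b-3p ranged from 199.5 over a median of 240.4 to 437 RPM in sham and from 188 over 281 to 337 in irradiated C3H mice, with a fitted change of -0.00. In irradiated C57 brains it was 185, 176, 199.6, 215 and 592 RPM, against 167 over 198 to 456 in sham brains, with a fitted change of 0.13. Only 2 members reached the count filter in brain and only miR-199a/b-3p in blood. In WBC its changes were -0.32 (C3H) and -0.53 (C57), and in RBC -1.15 (C3H, SE 0.49, p = 0.026, limma adjusted p = 0.220) and -0.49 (C57). Of these tests in brain and blood 0 passed in limma, with 1 at an unadjusted p under 0.05, and 0 passed in edgeR and DESeq2, each with 0 at an unadjusted p under 0.05. In limma 0.0% of the 432 miRNAs tested in brain, the 290 in WBC and the 228 in RBC passed after WTLI in either strain. In edgeR 12 of 228 miRNAs passed in C3H RBC and 3 of 432 in C57 brain. In DESeq2 22 of 228 passed in C3H RBC, 1 of 228 in C57 RBC and 9 of 432 in C57 brain.

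Sham mice were compared to see how the members differed between strains and sexes without irradiation. In heart members passed between strains and between sexes, and between the C57 sexes the fitted differences of the 3p and 5p arms of miR-199 had opposite signs. In sham C57 hearts miR-199a-5p was 26.0 over a median of 40.1 to 43.3 RPM in females and 60.3 over 107 to 168 in males. MiR-199b-5p was 16.2 over 31.6 to 39.0 RPM in females and 68.8 over 137 to 154 in males. For both 5p arms, every male lay above every female, and 24.1% of the miRNAs tested in heart did not overlap between the sexes. MiR-199a/b-3p was 6093 over 6501 to 7756 RPM in females and 3803 over 4849 to 8683 in males, with overlap.

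In the limma fit C57 females minus males differed in heart by 0.77 for miR-199a/b-3p (SE 0.21, adjusted p = 0.00523), -1.15 for miR-199a-5p (SE 0.34, adjusted p = 0.00925), -1.64 for miR-199b-5p (SE 0.30, adjusted p = 0.00039) and -0.83 for miR-214-5p (SE 0.30, adjusted p = 0.0295). MiR-214-3p differed by 0.11 and did not pass. So 4 of 5 members passed, beside 39.5% of the 311 miRNAs tested. In letter A alone 0 members passed (0.40, -0.66, -1.02 and -0.47 for the same 4, adjusted p from 0.177 to 0.550 in limma), beside 0.61% of all miRNAs, and in letter B alone all 4 did (1.11, -1.59, -2.33 and -1.19), beside 55.8%, a difference between letters that was not tested. With library size alone miR-199a/b-3p missed the threshold (0.34, limma adjusted p = 0.0726). The smooth muscle pair stood at 32259 to 40925 RPM in these females and 40601 to 57782 in the males, and the leukocyte list at 986 to 1592 and 1672 to 2603. From a list known for smooth muscle, fibroblasts and fibrosis, 13 miRNAs were tested in limma, of which 4 were higher in females and 4 lower. The part of these lists in the result was not tested.

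Among female sham hearts, C3H exceeded C57 by 1.12 for miR-199a-5p (SE 0.34, limma adjusted p = 0.0138) and by 1.75 for miR-199b-5p (SE 0.30, limma adjusted p = 3.85e-05). These were 2 of 5 members, beside 38.6% of all miRNAs tested. The difference of miR-214-5p was 0.72 (limma adjusted p = 0.0555), and it passed with TMM factors (0.90), with library size alone (1.21), in edgeR (1.01) and with the letter as a covariate (0.75), so that 3 of 5 members passed there. MiR-199a/b-3p differed by -0.20 (limma adjusted p = 0.465) and by 0.18 with library size alone. Within letter A the differences were 2.05 for miR-199a-5p, 1.90 for miR-199b-5p and 1.25 for miR-214-5p, and all 3 passed, beside 42.7% of all miRNAs. Within letter B only miR-199b-5p passed (1.64), beside 11.6%, and miR-199a-5p differed by 0.16 (limma adjusted p = 0.716). Library size alone moved the median difference of all miRNAs in heart by over 0.1 on the log2 scale, to 0.33 for C3H minus C57 and to -0.27 for females minus males. The miRNAs that passed then went from 48 higher and 72 lower to 96 and 22 between strains, and from 62 higher and 61 lower to 23 and 106 between sexes. The smooth muscle pair stood at 37073 to 77645 RPM in C3H and 32259 to 40925 in C57 female hearts, the erythrocyte list at 608 to 2740 and 340 to 704, and the leukocyte list at 1065 to 10253 and 986 to 1592. Of the 13 miRNAs tested from a list known for smooth muscle, fibroblasts and fibrosis, 4 were higher in C3H in limma (miR-143-3p by 0.36, miR-143-5p by 0.76, miR-145a-5p by 0.64 and miR-29b-3p by 0.71) and 4 lower (-0.90 for miR-125b-5p, -0.69 for miR-99a-5p, -1.09 for miR-100-5p and -0.68 for miR-29c-3p), and the part of these lists in the result was not tested.

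In sham lungs no member passed between strains or sexes in the limma fit. C3H females minus C57 females gave -0.17 for miR-199a/b-3p, with 0 of 5 members passed and 0 at an unadjusted p under 0.05, beside 14.6% of all miRNAs. With TMM factors the same difference was -0.39 and passed (limma adjusted p = 0.00277), and it also passed with library size alone (-0.38, limma adjusted p = 0.0209) and in edgeR (-0.39, adjusted p = 0.00261). C57 lungs held 9211 over a median of 10478 to 11290.0 RPM of miR-199a/b-3p in females and 6141 over 8230.2 to 9364 in males. The fitted difference was 0.25 (limma adjusted p = 0.144), with 0 of 5 members passed and 1 at an unadjusted p under 0.05, beside 5.44% of all miRNAs. It was 0.39 with TMM factors (limma adjusted p = 0.0172) and 0.38 in edgeR (adjusted p = 0.00841), and in letter B alone miR-199b-5p passed with -0.91 (limma adjusted p = 0.000897), beside 32.4% of all miRNAs there and 0.563% in letter A alone.

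In sham brains miR-199a/b-3p was 0.48 higher in C57 females than in males (SE 0.15, limma adjusted p = 0.0201), 1 of 2 members tested, beside 23.6% of all miRNAs. It was 0.29 in letter A alone and 0.40 with library size alone (limma adjusted p = 0.566 and 0.0819), and 0.73 in letter B alone. In letter A alone 0.0% of all miRNAs passed and in letter B alone 60.2%. The epithelial list in these brains ran from 352 to 41037 RPM in females and from 172 to 2165 in males. The neuronal list ran from 51746 to 75314 RPM in females and from 73568 to 107688 in males, the ciliated list from 1005.5 to 1932 and from 1923 to 2329, and the smooth muscle pair from 6630 to 10544 and from 8860 to 10216. The part of these lists in the result was not tested. Between C3H and C57 females 0 of 2 members passed, with 0 at an unadjusted p under 0.05, beside 16.0%. In edgeR 0 passed, with 1 at an unadjusted p under 0.05, beside 62 of 432 miRNAs. In C57 blood the female minus male difference of miR-199a/b-3p was 1.16 in WBC (limma adjusted p = 0.0946), beside 12.1% of all miRNAs that passed, and 1.22 in RBC (limma adjusted p = 0.0847), beside 18.9%, and in RBC it passed in edgeR (1.74, adjusted p = 0.0249).

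Ratios within a library do not depend on its scaling, and they were used to compare arms and paralogues. The ratio of miR-199a-5p to miR-199b-5p, the arms by which the paralogues can be told apart, was 0.360 to 0.669 in sham C3H lungs (geometric mean 0.554) and 0.738 to 1.11 in irradiated ones (0.897). All 7 irradiated libraries lay above all 8 sham libraries. The mean log2 ratio differed by 0.70 (two-sided exact permutation p = 0.000155, adjusted over 18 tests 0.0028), and it was the only 1 of the 18 that passed. In the limma fit with quantile normalisation neither 5p arm passed by itself in this tissue, while miR-199a-5p passed with library size alone and in DESeq2 as given above.

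In C57 lung the same ratio was 0.287 to 1.39 in sham mice (geometric mean 0.557) and 3.09, 0.654, 0.795, 0.682 and 1.00 in irradiated replicates 1 to 5 (1.02). The difference of 0.87 did not pass (exact permutation p = 0.0159, adjusted 0.127). Without sham replicate 4 it was 0.97 and passed (exact permutation, adjusted p = 0.0155). In heart the geometric means were 0.770 in sham and 1.16 in irradiated C3H mice, and 1.01 and 1.14 in C57 mice. Irradiated C3H replicate 3 had a ratio of 6.15, and the other irradiated C3H hearts 0.589 to 1.20. The sham C3H hearts again fell apart by letter, 1.00 to 1.25 in A and 0.393 to 0.699 in B. In sham C57 mice the ratio was lower in lung than in heart by 0.86 on the log2 scale, with 1 of 15 animals higher in lung (exact permutation adjusted p = 0.00586 over 12 tests), the only one of these 12 that passed, and in C3H mice it did not differ beyond the spread (exact permutation adjusted p = 0.352).

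The 3p arm exceeded the 5p arm of miR-199 (a and b summed) in every tissue with enough counts. In C3H lung the ratio was 37.9 to 61.0 in sham mice (geometric mean 50.1) and 47.0 to 106 in irradiated mice (69.9), a log2 difference of 0.48 that did not pass (exact permutation p = 0.0211, adjusted 0.127). It was 0.94 in letter A alone and 0.11 in letter B alone. In C3H heart the geometric mean was 34.1 in sham and 65.6 in irradiated mice, with 4 of 7 irradiated libraries above all sham libraries, a log2 difference of 0.94 that did not pass (exact permutation p = 0.0831, adjusted 0.374). In C57 lung the geometric means were 47.5 in sham and 51.0 in irradiated mice, and in C57 heart 46.6 and 38.9. In sham C57 hearts the females had 80.4 to 137 and the males 12.2 to 66.4, without overlap. In sham C3H hearts letter A had 10.6 to 29.3 and letter B 62.6 to 73.4.

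MiR-214 was less one-sided, with a 3p to 5p ratio of 6.09 in sham and 5.97 in irradiated C3H lung, 3.92 and 3.55 in C57 lung, 4.41 and 5.42 in C3H heart, and 6.89 and 5.77 in C57 heart. The ratio of miR-199a-5p to miR-214-3p, whose hairpins share Dnm3os on chromosome 1, passed in no tissue. MiR-199a-5p is also encoded on chromosome 9, so this ratio does not measure the shared transcript alone.

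**Figure D5:**
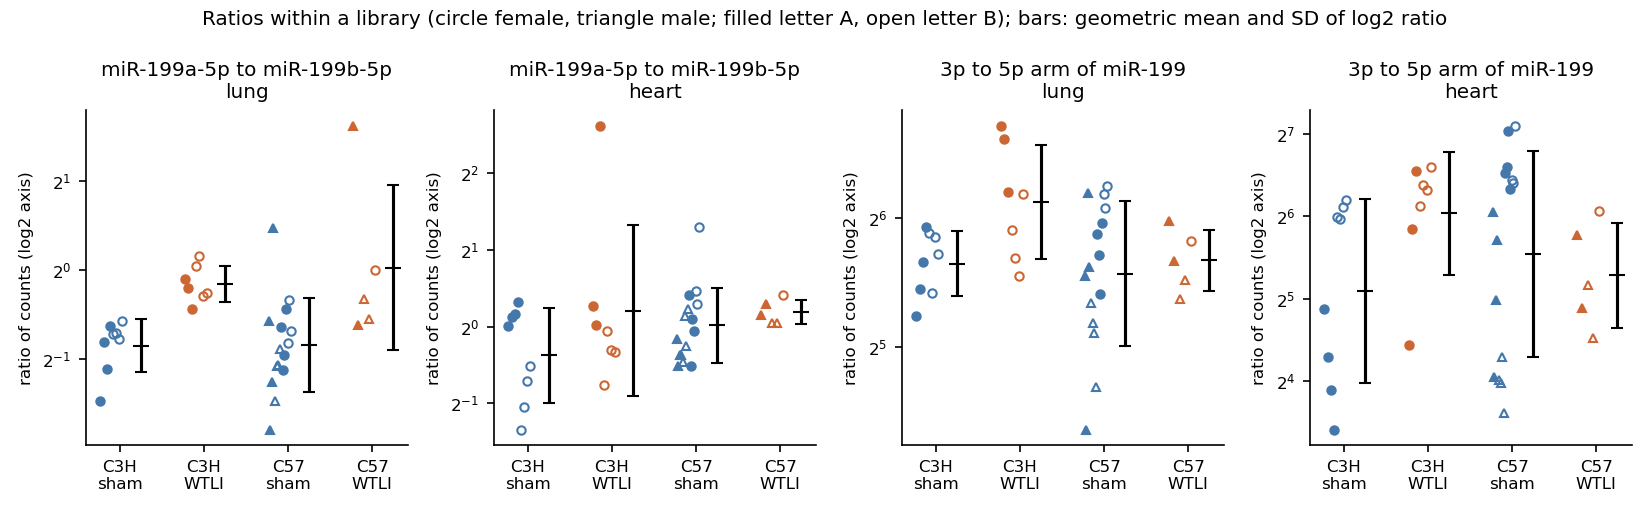
Ratios of arms and paralogues in every lung and heart library (log axis) by strain and irradiation. In the C3H lung panel of miR-199a-5p to miR-199b-5p all 7 irradiated libraries (0.738 and above) stand over the 8 sham libraries (at most 0.669).

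Over sham mice each other member was set against miR-199a/b-3p. In C57 lung miR-214-3p, from another hairpin, passed with a Pearson r of 0.77 (permutation adjusted p = 0.0138 over 16 relations, n = 15) and a Spearman rho of 0.60 (permutation adjusted p = 0.0902). Without the 2 libraries farthest from the median of miR-199a/b-3p, r was 0.38, so over both sexes together the relation rested on those libraries. Within females (n = 7) r was 0.86 and rho 0.96 (exact permutation, adjusted p = 0.0262 and 0.0222), and r was 0.95 without the 2 farthest. Within males (n = 8) r was 0.86 (exact permutation, adjusted p = 0.0262) but 0.38 without the 2 farthest, and rho was 0.71 and did not pass (exact permutation, adjusted p = 0.102). For the other members in C57 lung (n = 15) r was -0.18 for miR-199a-5p, 0.08 for miR-199b-5p and -0.56 for miR-214-5p, and none passed (permutation adjusted p = 0.600, 0.764 and 0.0882). In C3H lung (n = 8) r lay between 0.22 and 0.52 for the 4 members and none passed in the exact permutation test.

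Sham hearts fell apart by sex in C57 and by letter in C3H mice, so r over C57 sham hearts is given within a sex. The C3H sham hearts, all female, held 4 libraries of each letter, so the relation could not be tested within a letter and no r is given over the letters together. Within C57 males (n = 8) r with miR-199a/b-3p was -0.89 for miR-199a-5p, -0.91 for miR-199b-5p, -0.87 for miR-214-5p and 0.93 for miR-214-3p (exact permutation, adjusted p = 0.0123, 0.0123, 0.0262 and 0.00873). By rank only miR-214-3p passed, with a rho of 0.88 (exact permutation, adjusted p = 0.0290), against -0.76, -0.71 and -0.79 for the other 3 (exact permutation, adjusted p = 0.0980, 0.102 and 0.0894). Without the 2 libraries farthest from the median, r was -0.68, -0.66, -0.83 and 0.87. Within C57 females (n = 7) r was 0.09, -0.87, 0.53 and -0.78 in the same order, of which those of miR-199b-5p (exact permutation, adjusted p = 0.00873) and miR-214-3p (0.0262) passed. Their rho was -0.93 and -0.96 (exact permutation, adjusted p = 0.0290 and 0.0222), and r without the 2 farthest was -0.87 and -0.72. MiR-214-3p had opposite signs in males and females, a difference that was not itself tested. The males comprised 4 libraries of each letter and the females 4 of letter A and 3 of letter B, too few to test within a letter. The letters also differed among these male hearts. Their ratio of miR-199a-5p to miR-214-3p was 1.13 to 3.48 in letter A and 4.51 to 7.88 in letter B, without overlap. The p-values of these r take no account of the letter, and its part in them was not tested.

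The miRNAs whose level was most like that of miR-199a/b-3p over the 20 group means were chosen by Pearson r of log2(RPM + 1) among 399 miRNAs, given as a description. They were mmu-miR-143-5p (0.993), mmu-miR-152-5p (0.986), mmu-miR-145a-5p (0.985), mmu-miR-126a-5p (0.973) and mmu-miR-574-3p (0.970). MiR-143 and miR-145a are known from smooth muscle and miR-126a from endothelium. The other members had r of 0.974 (miR-199a-5p), 0.961 (miR-199b-5p), 0.943 (miR-214-3p) and 0.912 (miR-214-5p). The points share the contrast of solid tissue with blood: mmu-miR-143-5p averaged 330.5 RPM in sham lung, 356 in heart, 37.7 in brain and 1.03 in WBC.

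Within groups other miRNAs were named. Over the deviations of 35 lungs from their group means, the highest r with miR-199a/b-3p were those of mmu-miR-455-3p (0.597), mmu-miR-542-5p (0.577), mmu-miR-107-3p (0.527), mmu-miR-1199-5p (0.524) and mmu-miR-700-3p (0.524). Over 35 hearts they were those of mmu-miR-125a-5p (0.890), mmu-miR-100-5p (0.889), mmu-miR-676-3p (0.871), mmu-miR-125b-5p (0.862) and mmu-miR-486b-5p (0.857). The group means were taken over both letters and, in C57 mice, both sexes, by which the hearts fell apart, so the members' r are given both ways, the second chosen after seeing the data. In lung the other members had -0.11 (miR-199a-5p), -0.00 (miR-199b-5p), 0.486 (miR-214-3p) and -0.14 (miR-214-5p), and over the deviations of 34 lungs from the means of their group, sex and letter -0.18, 0.33, 0.30 and 0.07. In heart they had -0.80, -0.84, 0.17 and -0.69 in the same order, and within group, sex and letter (34 hearts) -0.42, -0.72, -0.09 and -0.44. The 5 miRNAs named for heart then had r between 0.736 and 0.794. The libraries share their depth and the quantile step, and these r carry no test.

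A list of 14 miRNAs known for smooth muscle, fibroblasts and fibrosis was set beside the members. It was written with earlier results of these data known. The study had already named miR-10b-5p and miR-21 among the miRNAs altered in lungs and hearts of both strains. The counts are therefore a description and no test of the list. In C3H lung 3 of 14 rose and 2 fell, beside 31.8% of all miRNAs that passed, with a median change of 0.02 beside -0.09 over all miRNAs. MiR-21a-5p, a miRNA of fibrotic tissue, rose by 1.50 (limma adjusted p = 0.00528), miR-21a-3p by 1.47 (limma adjusted p = 0.00179) and miR-10b-5p by 1.19 (limma adjusted p = 0.000142), while miR-145a-3p fell by 0.91 and miR-29b-3p, a repressor of collagen genes, fell by 0.45. In C57 lung 2 rose (miR-10b-5p by 2.11, miR-21a-3p by 1.41) and 1 fell (miR-145a-5p, by 0.53) of 14, beside 16.9% of all miRNAs, with a median of -0.26 beside -0.05. In C3H heart 3 of 13 rose (miR-10b-5p by 2.14, miR-21a-5p by 1.33, miR-21a-3p by 0.82) and 1 fell (miR-145a-5p, by 0.88), beside 17.7%, with a median of 0.25 beside -0.04. In C57 heart 3 rose (miR-10b-5p by 1.89, miR-21a-3p by 1.50, miR-21a-5p by 1.06) and 0 fell of 13, beside 3.54%, with a median of 0.03 beside -0.01.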

How the data were processed

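Small RNA was measured by sequencing in 5 tissues. According to the methods of the study, QIAseq miRNA libraries were made, and reads were trimmed and aligned to mouse miRNAs of mm10 with Illumina BaseSpace applications, leaving out runs of low depth. The files deposited by the authors, 1 per tissue, hold raw read counts that the authors did not normalise. How reads matching several miRNAs were divided, and whether molecular identifiers were counted, is not given in the sources used here. Each of 167 libraries from 35 animals was 1 replicate, since pairs within a group differed by more than sampling noise (chi-square per degree of freedom at least 15.5).

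The counts of miR-199a-3p and miR-199b-3p were summed. RPM was the count per 1000000 counts of the library. Changes were tested with voom and limma 3.58.1 in R 4.3.3 on quantile-normalised log2 RPM, after filterByExpr of edgeR 4.0.16 (count minimum 10, total minimum 15), with 1 fit per tissue of 4 groups (6 for sham contrasts, 8 for lung against heart). P-values were two-sided with Benjamini-Hochberg adjustment over all miRNAs tested in a fit, and passed means under 0.05. Tissues (1 RPM added) and ratios (0.5 counts added to each part, a median of at least 10 counts required) were compared with exact permutation tests, and relations with exact permutations or 100000 resamples, in Python 3.11.15 with scipy 1.17.1. The fits were tested on simulated counts. Lung and heart share animals by the animal number in the titles, and the correlation within animals estimated over all miRNAs was 0.0573.

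The miRNAs named are all members, the related list (at most 5 per contrast, by smallest adjusted p) and the 5 most like miR-199a/b-3p. The members and lists were chosen with earlier results of these data known. As alternatives, results were recomputed with DESeq2 1.42.0, edgeR's quasi-likelihood test, TMM factors, library size alone, filters of 1 count in any and 10 counts in every library, separate 3p rows, sex or letter as a covariate, C57 males alone, each strain or letter alone, the animal as a block, other added constants, unpaired tissue tests, and single libraries left out in turn. Not every alternative was run on every result. The sham contrasts were not run in DESeq2 or with a library left out. Lung against heart was not run in edgeR or DESeq2. For the strain difference and for lung against heart only irradiated libraries were left out. The letter in sham contrasts and the split of relations by sex were chosen after seeing the data. The plasma samples of the study were not analysed here.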

Additional observations from a re-analysis of the deposited data

Results flagged for a closer look

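In 10 of the 69 groups tested for a library far from the others, the highest library stood apart by Dixon's criterion. Its rate of about 1 in 20 holds for independent, normally distributed groups. These were untransformed RPM and ratios, and several came from the same libraries, so that rate is no measure of chance here. Groups of more than 10 libraries, the C57 sham mice, were not tested, and all 10 flags were in irradiated groups. In irradiated C3H hearts replicate 1 was highest for miR-199a-5p (158 RPM, next 70.7), miR-199b-5p (131 RPM, next 59.9) and miR-214-5p (10.7 RPM, next 4.15), and it also had the highest smooth muscle sum of its group, 68169 RPM against at most 57449. Replicate 3 of the same group was highest for the ratio of miR-199a-5p to miR-199b-5p (6.15, next 1.20) and of miR-199a-5p to miR-214-3p (87.0, next 7.41), the second resting on 3 counts of miR-214-3p.

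MiR-199a/b-3p stood apart in the brain of irradiated C57 replicate 5, the only female of its group (592 RPM, next 215), whose epithelial sum was 2953 RPM against 166 to 973 and whose neuronal sum was 51812 RPM against 79044 to 93973. It also stood apart in the RBC of irradiated C3H replicate 3 (27.8 RPM, next 2.64), with a leukocyte sum of 44771 RPM against 8203 to 29341. In the WBC of irradiated C3H replicate 2 it stood apart too (28.9 RPM, next 7.10), with a leukocyte sum of 22442 RPM against 10623 to 19758. Replicates are numbered within each tissue. These RBC and WBC libraries and the heart of irradiated C3H replicate 3 came from the same mouse. The ratio of miR-199a-5p to miR-199b-5p stood apart in the lung of irradiated C57 replicate 1 (3.09, next 1.00), and that of miR-199a-5p to miR-214-3p in the heart of irradiated C57 replicate 4 (5.14, next 2.29). The cause of these values was not tested.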

How the results depend on the processing

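No value that passed turned its direction under any alternative, and 134 values that passed in neither setting or had no test changed sign. The number of members that passed in C3H lung was 1, against 0 with the fold minimum, 2 with library size alone and 2 in DESeq2, and 1 to 1 with a library left out. In C57 lung it was 0, against 1 with sex as a covariate and 0 to 1 with a library left out, and for the strain difference in lung 0, against 0 to 1. In C3H heart it was 2 (beside 55 of 311 miRNAs), against 1 with the fold minimum, in edgeR (62 of 311), under both other filters and with each strain alone. It was 0 in letter B alone, and 0 to 2 with a library left out. Of the sham contrasts, lung between strains went from 0 to 1 with TMM factors, library size alone and edgeR, beside 55, 53 and 59 of 349 miRNAs. Lung between sexes went from 0 to 1 with TMM factors (25 of 349 miRNAs), edgeR (44 of 349) and letter B alone (32.4%). Heart between strains went from 2 to 1 in letter B alone and to 3 with TMM factors, library size alone, edgeR, letter A alone and the letter as a covariate, and heart between sexes from 4 to 0 in letter A alone. Brain between strains went from 0 to 1 in letter B alone, brain between sexes from 1 to 0 in letter A alone and with library size alone (104 of 432 miRNAs), and RBC between sexes from 0 to 1 in edgeR (55 of 228 miRNAs). For C3H lung against heart it went from 0 to 1 with the animal as a replicate block, to 3 with library size alone, and 0 to 1 with a library left out. In C57 mice the block changed no call. Ratio tests passed in 1 case, against 1 to 2 with a library left out (2 without sham C57 replicate 4). Relations with miR-199a/b-3p over sham mice passed in 4 cases, against 8 with TMM-scaled RPM, and 3 of the 4 were C57 hearts over both sexes, for which no r is given above. The 68 tissue tests stayed within 1.5 times that number, and the other counts that were refitted with a library left out were 0. The sham contrasts were not refitted in that way. Of 1022 single values under other settings 955 kept their side of the threshold or, without a test, stayed within their error, 40 gained it, 17 lost it and 10 without a test moved, and of 1084 with a library left out 1067 kept it. Where not given by fewer libraries or miRNAs, the cause was not tested. Depth limits miR-214-5p in heart (counts from 3 to 50) and all members but miR-199a/b-3p in blood.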
